A study of Mus musculus with 94 samples.

Results

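Digital spatial profiling counts of mouse kidney were searched for probes that were higher in medullary than in cortical tubules and whose tubular level stayed close to that of uninjured kidney after ischemia-reperfusion injury (IRI). Of 20175 probes, 47 met these conditions. For each probe, counts were summed per section, stain and region and expressed as log2(CPM + 1), where CPM is the count scaled to the sum's total. The first condition was a cortex minus medulla difference of -0.5 or lower in tubules, averaged over 14 sections. Besides, the mean of vehicle-treated sections had to lie within 0.5 of the control mean on days 1, 7, and 14 in tubular sums of both regions, and the macrophage level had to exceed the tubular level by less than 1 on days 7 and 14. The rule allowed up to 60 probes and found fewer. The probes were chosen by these measured values, the regional difference and the differences after injury and from macrophages in these same sections, so they are described here and not tested.

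The sections came from male C57BL/6 mice. The 7 groups were uninjured kidneys (control), kidneys taken 1, 7 or 14 days after unilateral IRI from mice that received vehicle, and kidneys taken at the same times from mice that received entospletinib, an inhibitor of spleen tyrosine kinase (SYK), with 2 sections per group. Drug or vehicle was first given before surgery, at a lead time for which the sample labels and the study's methods differ, and the methods describe further injections after day 1. The labels call the controls contralateral kidneys, whereas the methods also name kidneys of healthy mice. Section 1 and section 2 are the 2 prefixes of the labels, which do not state that a prefix is a single mouse, so p-values measure the spread between sections. Regions were stained for cytokeratin (PanCK, tubular cells; 48 segments) and IBA1 (macrophages; 46 segments) and placed in cortex or medulla. By the study's methods, tubular cells were positive for PanCK alone or for both PanCK and CD10. The study counted the outer medullary stripe as medulla.

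The medulla holds the loops of Henle and the collecting ducts, which build the salt gradient and concentrate the urine, whereas proximal tubules fill much of the cortex. Blood flow and oxygen are low in the medulla, and its outer part is a classic site of ischemic tubular damage. No table used here pairs the probe identifiers with genes. The 47 probes are therefore given by identifier or by rank, from the lowest cortex minus medulla difference (rank 1) to the highest (rank 47), no gene's role can be stated, and the medullary tubular origin could not be checked against marker genes.

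Sums of tubular segments held between 1235205 and 14592944 counts per section and region, and those of macrophages between 41102 and 1618433. The medulla gave 18.7% and 11.5% of the tubular counts in the vehicle sections of day 1, against 51.3% and 37.3% in the control sections, and between 27.9% and 63.5% in the other 10 sections. A level in both regions together weighs the medulla by that share.

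The cortex minus medulla difference of the 47 probes ranged from -2.33 to -0.50, with a median of -0.65. The probe ranked 1st (RTS0062238, -2.33) and the probe ranked 2nd (RTS0061455, -1.71) stood apart from the probe ranked 3rd (RTS0070773, -1.01). The last probe inside the threshold had a difference of -0.504 and the first outside -0.497. Of the 341 probes with a difference of -0.5 or lower, 294 were outside the injury limits. These included 267 on day 14, of which 189 were higher than in controls and 78 lower. The 47 probes were thus 13.8% of the probes with this medullary bias, whereas 76.1% of all probes were within the injury limits on all 3 days. The largest injury difference of a member was 0.494, and the smallest such maximum outside was 0.517. Many members lay near the limit. An absolute difference of at least 0.4 on some day was found for 24 of 47, and only 4 stayed under 0.2 on all 3 days. Median differences from control were -0.18 on day 1, 0.06 on day 7 and 0.11 on day 14. Members had mean medullary levels from 14.5 to 1149.8 CPM (median 57.8) and mean cortical levels from 9.74 to 420.1 CPM (median 34.8). Their mean tubular level lay at a median percentile of 77.4 among all probes, with a range of 11.1 to 99.7. The counts precede the authors' background checks, so the distance of these levels from background is not known here. The medulla was higher in a median of 13 of 14 sections per probe, with a range of 9 to 14.

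The most biased probe, RTS0062238, was read in medullary tubules at 203.9 and 29.5 CPM in the 2 control sections, 196.4 and 61.5 CPM in vehicle sections on day 1, 111.8 and 226.6 CPM on day 7, and 67.0 and 119.4 CPM on day 14. With entospletinib it was read at 221.9 and 109.6 CPM on day 1, 126.8 and 13.5 CPM on day 7, and 132.0 and 38.4 CPM on day 14, with section 1 first in each pair. Cortical tubules stayed between 11.6 and 27.9 CPM in all 14 sections, and the medulla was higher in 14 of 14. The cortex was thus uniformly low for this probe, and the medullary values of 2 sections, control section 2 and entospletinib day 7 section 2, were close to it.

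The second probe, RTS0061455, had 257.6 and 23.5 CPM in the medullary tubules of the controls, 71.9 and 34.0 CPM in vehicle sections on day 1, 69.3 and 113.4 CPM on day 7, and 33.9 and 64.4 CPM on day 14. In entospletinib sections the values were 82.5 and 76.3 CPM on day 1, 296.1 and 140.3 CPM on day 7, and 377.1 and 308.6 CPM on day 14. Its cortical range was 12.5 to 84.1 CPM. Control section 1 and the 4 entospletinib sections of days 7 and 14 were above all 6 vehicle sections, and control section 2 was below them.

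The third probe, RTS0070773, was among the most abundant tubular probes. It had 1610.1 and 425.4 CPM in the medullary tubules of the controls, 315.5 and 81.8 CPM in vehicle sections on day 1, 657.5 and 1264.9 CPM on day 7, and 279.2 and 735.1 CPM on day 14. With entospletinib, its values were 913.6 and 765.9 CPM on day 1, 1885.7 and 1434.1 CPM on day 7, and 2269.7 and 3458.9 CPM on day 14. Both day 1 vehicle sections were below both controls in the medulla. Cortical values of the same probe on day 1 were 344.9 and 567.4 CPM in vehicle sections and 338.7 and 283.7 CPM in controls, and so ran the other way. In both regions together the probe was read at 339.4 and 511.5 CPM on day 1 and at 990.5 and 336.6 CPM in controls, which overlapped.

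The probe RTS0076866 (rank 18) was called in 2 of the comparisons below, as was the probe ranked 24th, which the naming rule passed over for its higher cortex minus medulla difference. Medullary values of RTS0076866 were 108.9 and 67.8 CPM in controls, 42.9 and 37.2 CPM in vehicle sections on day 1, 81.9 and 83.7 CPM on day 7, and 46.8 and 64.6 CPM on day 14. With entospletinib they were 107.1 and 58.2 CPM on day 1, 101.9 and 56.6 CPM on day 7, and 121.6 and 76.7 CPM on day 14. In the cortex it ranged from 34.4 to 52.6 CPM. Both day 1 vehicle values in the medulla were lower than all other medullary values of this probe, which its small cortical range brings out.

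**Figure D1:**
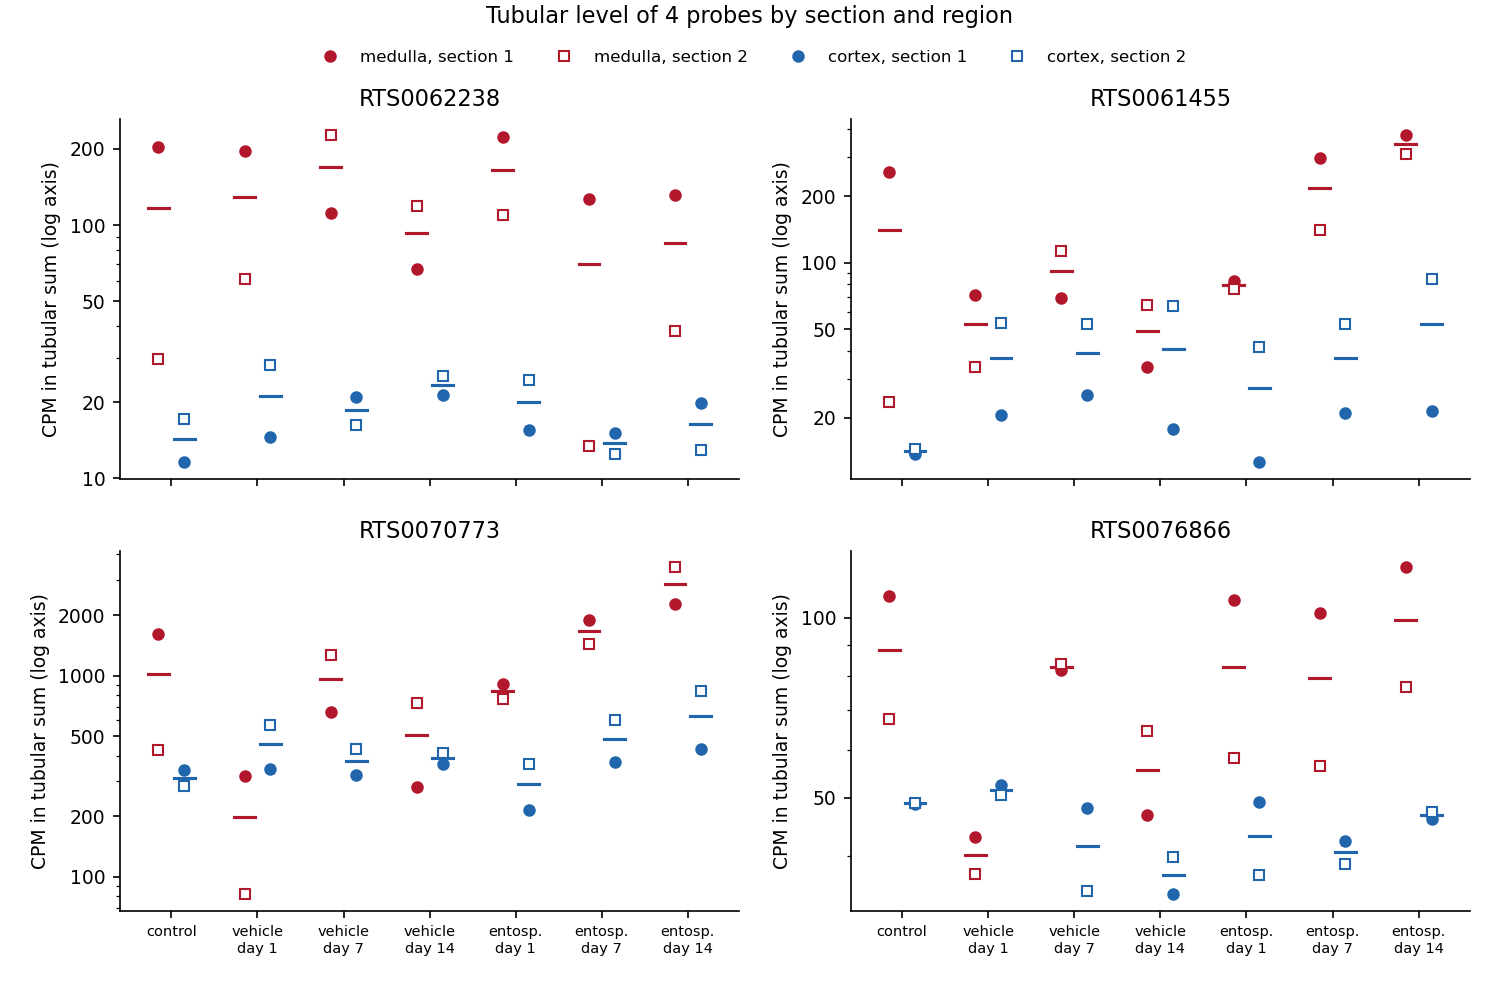
CPM (log axis) of 4 probes in tubular sums, by group; red, medulla; blue, cortex; filled circles, section 1; open squares, section 2; short lines, means of the 2 sections. RTS0062238 was between 11.6 and 27.9 CPM in every cortical sum, and RTS0061455 and RTS0070773 had their highest medullary values in entospletinib sections of day 14.

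For most of these probes, the 2 control sections differed by more than the limit that the rule set on the difference between groups. In tubular sums of both regions, 45 of 47 members were higher in control section 1 than in section 2, with a median difference of 0.62 on the log2(CPM + 1) scale. Only 17.4% of all probes were higher in control section 1. In these sums, 27 members differed by 0.5 or more in either direction, compared with 37.5% of all probes. In the medulla alone, 46 of 47 were higher in section 1, by a median of 1.01, compared with 20.2% of all probes higher in section 1, and 43 differed by 0.5 or more in either direction, compared with 40.8%. In the cortex, 8 of 47 members were higher in section 1, which is near the 16.4% of all probes, and the median difference was -0.27. The control mean to which injury was compared was thus the midpoint of a section with high and a section with low medullary values. For 11 of 47 members, all 6 vehicle sections lay between the 2 controls in tubular sums of both regions, against 3.57% of all probes. In the medulla alone this was true of 16 members and 3.41% of all probes. The rule favoured such probes, since it held the vehicle means near the midpoint of the controls. Its regional condition also took in control section 1, and so favoured probes high in that medulla. The counts of this paragraph are therefore a description. In entospletinib sections of day 7, 42 of 47 members were higher in section 1 in the medulla with a median difference of 0.87, but 82.8% of all probes were higher there too. In the remaining 5 groups the median difference between the 2 medullary sums was between -0.39 and 0.32.

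The medullary bias itself varied between sections in the same way. The median medulla minus cortex difference over the 47 probes was 1.61 in control section 1 and 0.12 in control section 2. It was 0.72 and 0.10 in vehicle sections on day 1, 0.55 and 0.91 on day 7, and 0.47 and 0.41 on day 14. Entospletinib sections had 0.77 and 0.28 on day 1, 1.13 and 0.17 on day 7, and 1.14 and 0.68 on day 14. The median was positive in all 14 sections and smallest in section 2 of the control, vehicle day 1, entospletinib day 1 and entospletinib day 7 groups. It overlapped between control, vehicle and entospletinib groups except that both entospletinib sections of day 14 were above both vehicle sections of that day. The smallest number of members higher in the medulla was 29 of 47, in vehicle day 1 section 2, and all 47 were higher in 4 sections. Over all probes, the median difference was between -0.20 and 0.21. In vehicle day 1 section 2 it was 0.20, above the 0.10 of the members, and 67.7% of all probes were higher in the medulla, so that the members had no bias beyond that of all probes in this section.

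**Figure D2:**
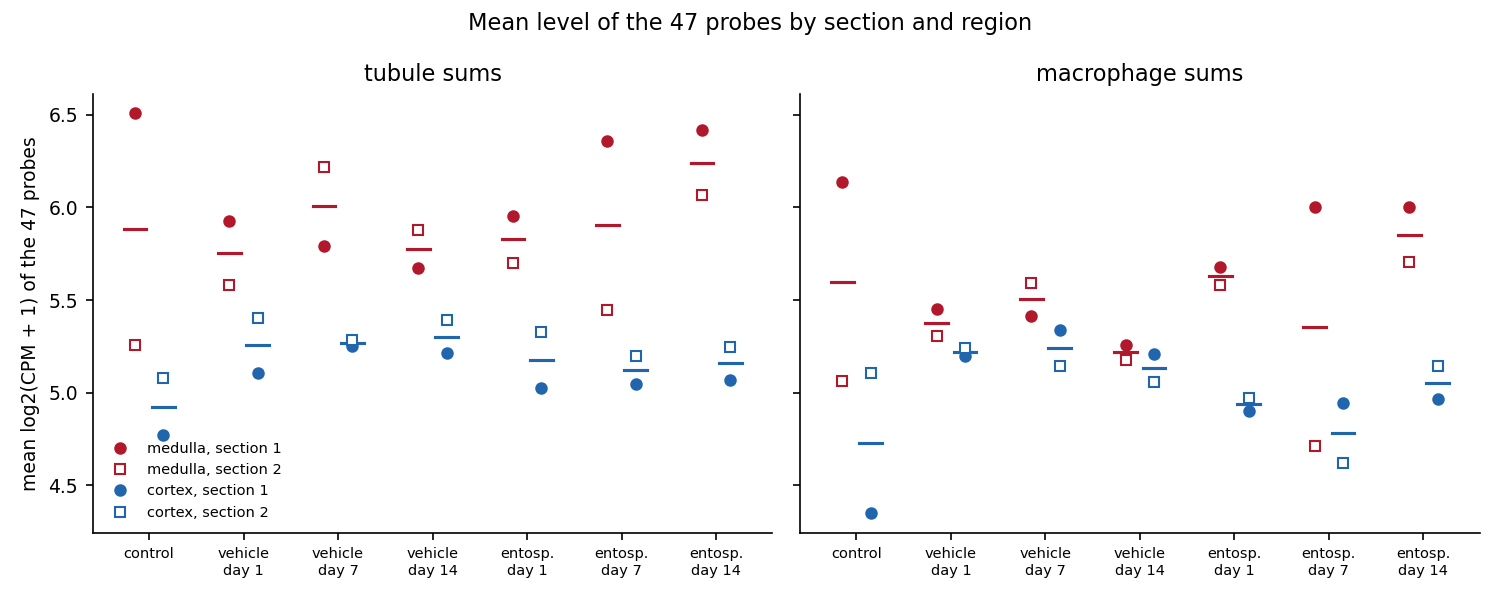
Mean log2(CPM + 1) of the 47 probes in tubular (left) and macrophage (right) sums, by group; red, medulla; blue, cortex; filled circles, section 1; open squares, section 2; short lines, means of the 2 sections. Medullary tubular means ran from 5.26 in control section 2 to 6.51 in control section 1, and cortical tubular means from 4.77 to 5.41.

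The mean level of the 47 probes on the log2(CPM + 1) scale was 5.88 ± 0.88 (SD, n = 2) in medullary tubules of controls, 5.76 ± 0.24 in vehicle sections on day 1, 6.01 ± 0.30 on day 7 and 5.78 ± 0.14 on day 14, with n = 2 throughout. In entospletinib sections it was 5.83 ± 0.18 on day 1, 5.90 ± 0.65 on day 7 and 6.24 ± 0.25 on day 14. Cortical means were 4.93 ± 0.22 in controls and between 5.12 and 5.30 in the other groups. Every medullary sum of the injured groups lay between the 2 control sums.

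The rule limited the injury differences only where cortex and medulla were summed. To learn whether the probes were also close to control within a region, vehicle and control means were compared for the medulla and the cortex separately. These values share sections with the rule and were not tested. In the medulla on day 1, 5 members were higher than control by 0.5 or more and 11 lower, compared with 20.3% and 8.14% of all probes. On day 7, 5 were higher and 5 lower (10.4% and 5.64% of all probes), and on day 14 a single member was higher and 7 were lower (17.9% and 9.20%). Members' medullary differences on day 1 ranged from -2.36 to 1.09, with a median of -0.08. The lowest value belonged to RTS0070773.

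In the cortex, 9 members were higher than control by 0.5 or more on day 1, 12 on day 7 and 16 on day 14, and no member was lower by as much on any of these days. Among all probes, 3.18% on day 1, 11.5% on day 7 and 12.7% on day 14 were higher by 0.5 or more, and 2.29%, 2.81% and 9.31% were lower. The median cortical difference of members was 0.29, 0.28 and 0.33, beside 0.12, 0.24 and -0.07 over all probes. In the medulla the medians were -0.08, 0.18 and 0.01. On day 14, both vehicle sections were above both controls in the cortex for 28 members, compared with 23.9% of all probes, and below them for 2 members, compared with 11.9%. The regional condition took in the control cortex, and so favoured probes low there. The injury limit held the summed change near 0, which favours opposite changes in the 2 regions. The cortical counts follow in part from this choice and are a description. The counts in both regions also turned on the controls. Without control section 1, 24 members were higher and 3 lower in the medulla on day 1, and without control section 2 the counts were 2 and 30. In the cortex on day 14, 8 members were higher and 2 lower without control section 1.

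The difference between the medullary and the cortical change after injury was fitted over all 20175 probes with edgeR's quasi-likelihood model, with the section in the model. The rule used the same sums, since it held the summed change of the vehicle sections from control near 0, which favours opposite changes in the 2 regions. The fitted values are therefore a description, and nothing is read from the calls. On day 1, 1 of 47 members was called, beside 2.39% of all probes. This was RTS0076866, whose medulla relative to cortex fell by 1.22 on the log2 scale (SE 0.31). Its medullary values on day 1 did not overlap with those of controls, whereas its cortical values were 52.6 and 50.5 CPM on day 1 and 48.9 and 49.0 CPM in controls. RTS0070773 had a log2 interaction of -2.90 (SE 0.95). The call on RTS0076866 was lost without control section 1 and without either vehicle section, and with the group in place of the section in the model. On day 1 the median interaction of members was -0.36, beside 0.03 over all probes, and 37 of 47 were negative. Positive interactions were found for 10 members and 53.6% of all probes.

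On days 7 and 14, edgeR called no member. At an unadjusted p under 0.05 it listed 1 member on day 7 and 0 on day 14, beside 2082 and 1252 of 20175 probes. DESeq2 called 0 members on both days. All-probe calls were 0.0% on day 7 and 0.243% on day 14. The median interaction of members was -0.07 on day 7 and -0.47 on day 14, beside -0.16 and 0.02 over all probes. The median SE per member was 0.53 on day 14.

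The effect of entospletinib was next compared between regions with Benjamini-Hochberg adjustment over all probes. The vehicle sums entered the injury limits of the rule, and all 14 sections entered its regional condition. On day 1, RTS0076866 was again the only member to pass (1 of 47, beside 1.85% of all probes). Its medulla relative to cortex was higher than in vehicle sections by 1.38 (SE 0.30, edgeR adjusted p = 0.0276). This test and the former share the 2 vehicle sections of day 1, whose medullary sums were the shallowest of all, with 1863750 and 1235205 counts. Every omission of a compared section took its adjusted p above 0.05. RTS0070773 had an interaction of 3.14 (SE 0.94, edgeR adjusted p = 0.171), with medullary values of 315.5 and 81.8 CPM in vehicle and 913.6 and 765.9 CPM in entospletinib sections. No member was called on day 7 (0.0793% of all probes) or on day 14 (0.585%) by edgeR, and DESeq2 called 0 and 1. At an unadjusted p under 0.05, edgeR listed 0 members on day 7 and 9 on day 14. Over all 20175 probes these counts were 3183 and 1663. On day 14, 43 of 47 interactions were positive with a median of 0.72, beside 50.2% positive and a median of 0.00 over all probes. A probe with a high medulla in these entospletinib sections passed the regional condition more easily. When the members were chosen anew without the entospletinib sections of day 14, 40 of 44 were positive with a median of 0.69, and none was called.

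To see which probes followed the drug, entospletinib and vehicle sections were compared in tubular sums of both regions. On day 14, 6 of 47 members were higher and 0 lower, with a call requiring a log2 fold change beyond 1 in either direction and an adjusted p below 0.05 (edgeR), beside 2.97% and 3.18% of all probes. By adjusted p alone, 8 members were higher and 0 lower, beside 11.0% and 8.22%. These sums also entered the rule, the entospletinib sections in its regional condition and the vehicle sections in its injury limit. Without the entospletinib sections of day 14 the rule found 44 probes, of which 4 were called higher and 0 lower, and the called members ranked 41 and 44 were then not chosen. These 2 passed the rule only through the sections in which they were high. With all 6 entospletinib sections left out, RTS0070773 and the probe ranked 24th, which were also called here, were not chosen. In a bulk sum of a region, fewer cells of a type and less RNA per cell cannot be told apart. The medulla gave 49.2% and 63.5% of tubular counts in these vehicle sections and 61.1% and 51.7% in the entospletinib sections, which overlap.

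RTS0070773 was read in the sums at 322.1 and 618.1 CPM with vehicle and at 1553.7 and 2191.1 CPM with entospletinib. Its log2 fold change was 2.28 (SE 0.53, edgeR adjusted p = 0.0132). The groups did not overlap, and the probe lost its call without entospletinib section 2 (1.92, adjusted p = 0.0591). The probe ranked 24th had the smallest adjusted p of the members and went from 16.2 and 18.1 CPM to 34.4 and 58.7 CPM (log2 fold change 1.73, SE 0.33, edgeR adjusted p = 0.00466). The probe ranked 41st went from 92.8 and 186.3 CPM to 223.3 and 632.2 CPM (1.92, SE 0.55), where section 2 was much the higher. The other 3 called members, ranked 10, 14 and 44, had log2 fold changes of 1.44, 1.33 and 1.04. Their vehicle values lay between 19.8 and 29.0 CPM and their entospletinib values between 37.8 and 60.2 CPM, so that the groups did not overlap for any of the 6.

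The 2 most biased probes were not called. RTS0061455 had a larger fold change than any called member (2.54) but also a larger error (SE 0.86, edgeR adjusted p = 0.0636), and 25.7 and 64.2 CPM with vehicle against 238.6 and 200.1 CPM with entospletinib. RTS0062238 had a log2 fold change of 0.06 (SE 0.97), with 43.8 and 85.1 CPM against 88.3 and 26.1 CPM. RTS0076866 passed the adjusted p but not the fold threshold (0.94, SE 0.29, edgeR adjusted p = 0.0419).

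The upper quartile normalization shifted all probes in this comparison. The median log2 fold change was 0.33 over all probes and 0.49 over the members, whereas it was 0.09 and 0.26 with TMM normalization and 0.05 and 0.22 with DESeq2. Of all calls, 48.3% were higher with the upper quartile and 22.3% with TMM. Relative to all probes, the members' median was 0.16 higher, or 0.17 with either alternative. The direction of the called members did not depend on the scaling, but their number did, with 3 members called under TMM and 4 by DESeq2. A single member was called without entospletinib section 2 and 2 without vehicle section 2.

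The day 14 difference was also described by region. In medullary tubules, both entospletinib sections were above both vehicle sections for 21 members and below them for 2, compared with 15.8% and 34.7% of all probes. In cortical tubules, 4 members were above and 18 below (10.7% and 24.1% of all probes). The median difference of members was 0.24 in the medulla and -0.18 in the cortex, on the log2(CPM + 1) scale. The regional condition of the rule took in these sections, and so favoured probes with a high medulla and a low cortex in them. The split between the regions follows in part from this choice, and nothing is read from it. The test of the regional difference, given above, called no member, and RTS0070773 was also higher with entospletinib in the cortex (363.6 and 414.6 CPM with vehicle, 430.4 and 836.2 CPM with entospletinib). The 2 medullary regions of a day 14 entospletinib section were alike. The median absolute difference of members was 0.13 in both sections, beside 0.11 and 0.12 over all probes. In vehicle sections of the same day it was 0.30 and 0.37, beside 0.31 and 0.19 over all probes. The regions of vehicle section 1 held 588814 and 4812779 counts. RTS0070773 had 2184.0 and 2331.5 CPM in the regions of entospletinib section 1 and 3400.7 and 3563.5 CPM in those of section 2, but 799.9 and 215.5 CPM in vehicle section 1 and 1273.7 and 361.9 CPM in vehicle section 2. Vehicle regions of the same section could therefore differ as much as sections did.

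**Figure D3:**
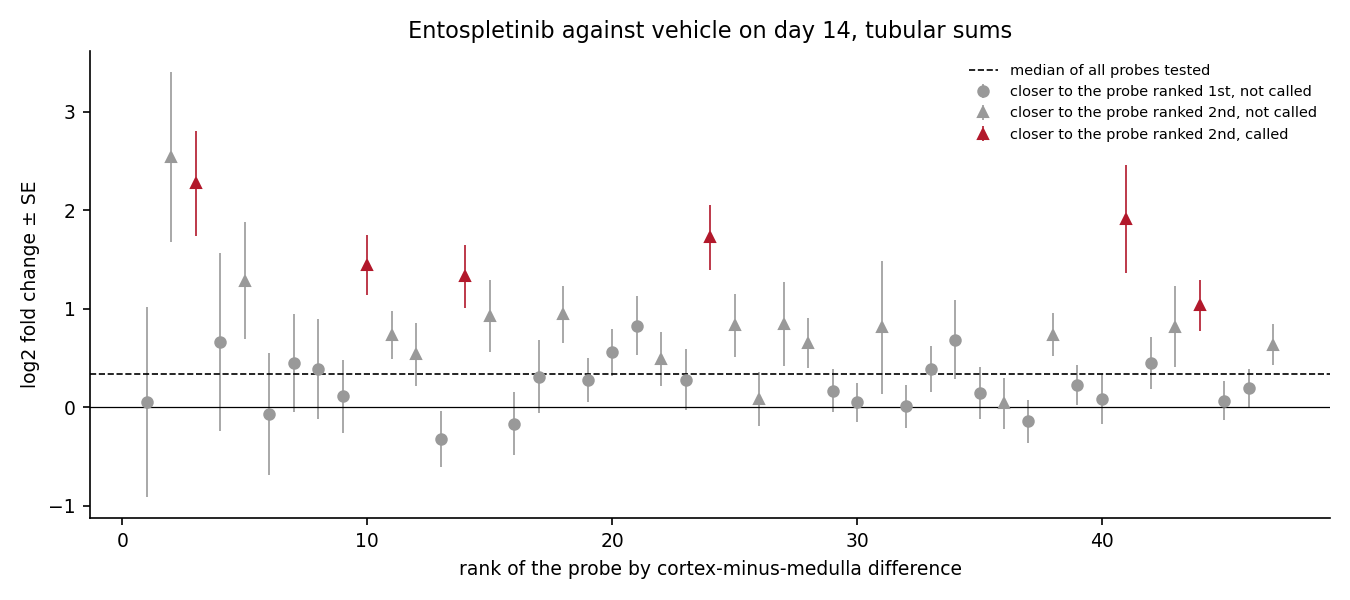
Log2 fold change ± SE (edgeR) of each probe in tubular sums of entospletinib against vehicle on day 14, by rank; circles and triangles, members whose medullary pattern was closer to the probe ranked 1st or 2nd; red, called; dashed line, median of all probes (0.33). All 6 called members lie above 1, as the call required, and all are triangles, in a division that used the same sections.

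No member was called for entospletinib against vehicle on day 1 or day 7. EdgeR called 0.0% of all probes on day 1 and 0.664% on day 7, and DESeq2 called no member on either day. At an unadjusted p under 0.05, edgeR listed 0 members on day 1 and 3 on day 7. Over all 20175 probes these counts were 100 and 1804. On day 1, 44 of 47 log2 fold changes were positive, beside 46.7% of all probes. The median of members was 0.19, beside -0.01 over all probes. The medulla gave 18.7% and 11.5% of these vehicle sums but 60.4% and 46.5% of the entospletinib sums. Within regions, the members' median difference on the log2(CPM + 1) scale was 0.007 in the medulla and -0.06 in the cortex. The part of the medullary share in the summed values was not tested. On day 7 the median log2 fold change was 0.09, beside 0.12 over all probes, and 30 of 47 were positive, beside 71.6%.

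Within the entospletinib groups, day 14 and day 7 were set against day 1 to follow the probes over time under the drug. None passed in day 14 against day 1 (0.283% of all probes called), day 7 against day 1 (0.243%) or day 14 against day 7 (0.0%) with edgeR, and DESeq2 called none. At an unadjusted p under 0.05, edgeR listed 12, 3 and 6 members in these comparisons, beside 1759, 1678 and 152 of 20175 probes. Day 14 was higher than day 1 for 36 of 47 members with a median log2 fold change of 0.35, beside 0.03 over all probes, and higher than day 7 for 44 of 47 with a median of 0.34, beside -0.05. The entospletinib sections entered the regional condition of the rule, and without the sections compared it found 54, 64 and 50 probes, of which none was called. RTS0061455 and RTS0070773 had log2 fold changes of 2.05 (SE 0.84) and 1.77 (SE 0.52) from day 1 to day 14, and RTS0062238 of -0.76 (SE 0.97). The adjusted p of these 3 was 0.506, 0.215 and 1.0 by edgeR.

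Against controls, which the rule did not limit for the drug, entospletinib sections were described without a test since they share the control sums with the rule. In tubular sums of both regions, 2 members on day 1, 6 on day 7 and 10 on day 14 were higher than the control mean by 0.5 or more, beside 2.87%, 1.22% and 1.37% of all probes. No member was lower by as much on days 1 and 14, and 2 were on day 7, beside 2.84%, 0.867% and 0.783% of all probes in that order. On day 14 both entospletinib sections were above both controls for 12 members and below them for 0, compared with 4.17% and 10.3% of all probes. The largest difference on day 14 was 2.10. The rule held the vehicle sums close to control but not the entospletinib sums. Its regional condition also took in the entospletinib sections, and so favoured probes high in their medulla. A contrast between vehicle and entospletinib sections in closeness to control follows in part from this choice, and nothing is read from it.

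The members did not vary as 1 block. Over the 14 medullary tubular sums, Pearson's r between 2 members had a median of 0.44 and ranged from -0.68 to 0.96. These sums share depth and composition, and r is given as a description. RTS0062238 and RTS0061455 had r = 0.19. Of the 45 other members, 24 were closer to RTS0062238 and 21 to RTS0061455. The division was made on these sums and has no test of its own. RTS0070773 had r = 0.86 to RTS0061455 and 0.05 to RTS0062238.

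Both kinds were lower in control section 2 than in control section 1, but they parted in the entospletinib sections of days 7 and 14. The division was made on these same sums, so this parting follows in part from it. The 24 members closer to RTS0062238 had mean medullary levels, on the log2(CPM + 1) scale, of 6.09 and 5.03 in controls, 6.00 and 4.70 with entospletinib on day 7, and 5.99 and 5.21 on day 14. The 21 members closer to RTS0061455 had 6.86 and 5.56 in controls, 6.65 and 6.29 on day 7, and 6.77 and 6.97 on day 14. The first kind was thus low in section 2 of 3 groups, and the second only in control section 2 among these. With entospletinib on day 1 the means were 5.66 and 5.35 for the first kind and 6.18 and 6.02 for the second. Both kinds were lower in section 2 there. In vehicle sections on day 1 the means were 5.85 and 5.60 for the first kind and 5.92 and 5.57 for the second, on day 7 they were 5.54 and 5.87 against 6.02 and 6.50, and on day 14 they were 5.60 and 5.64 against 5.77 and 6.09. All 6 members called for entospletinib on day 14 were closer to RTS0061455, a count that follows in part from the division, since it used the same sections.

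**Figure D4:**
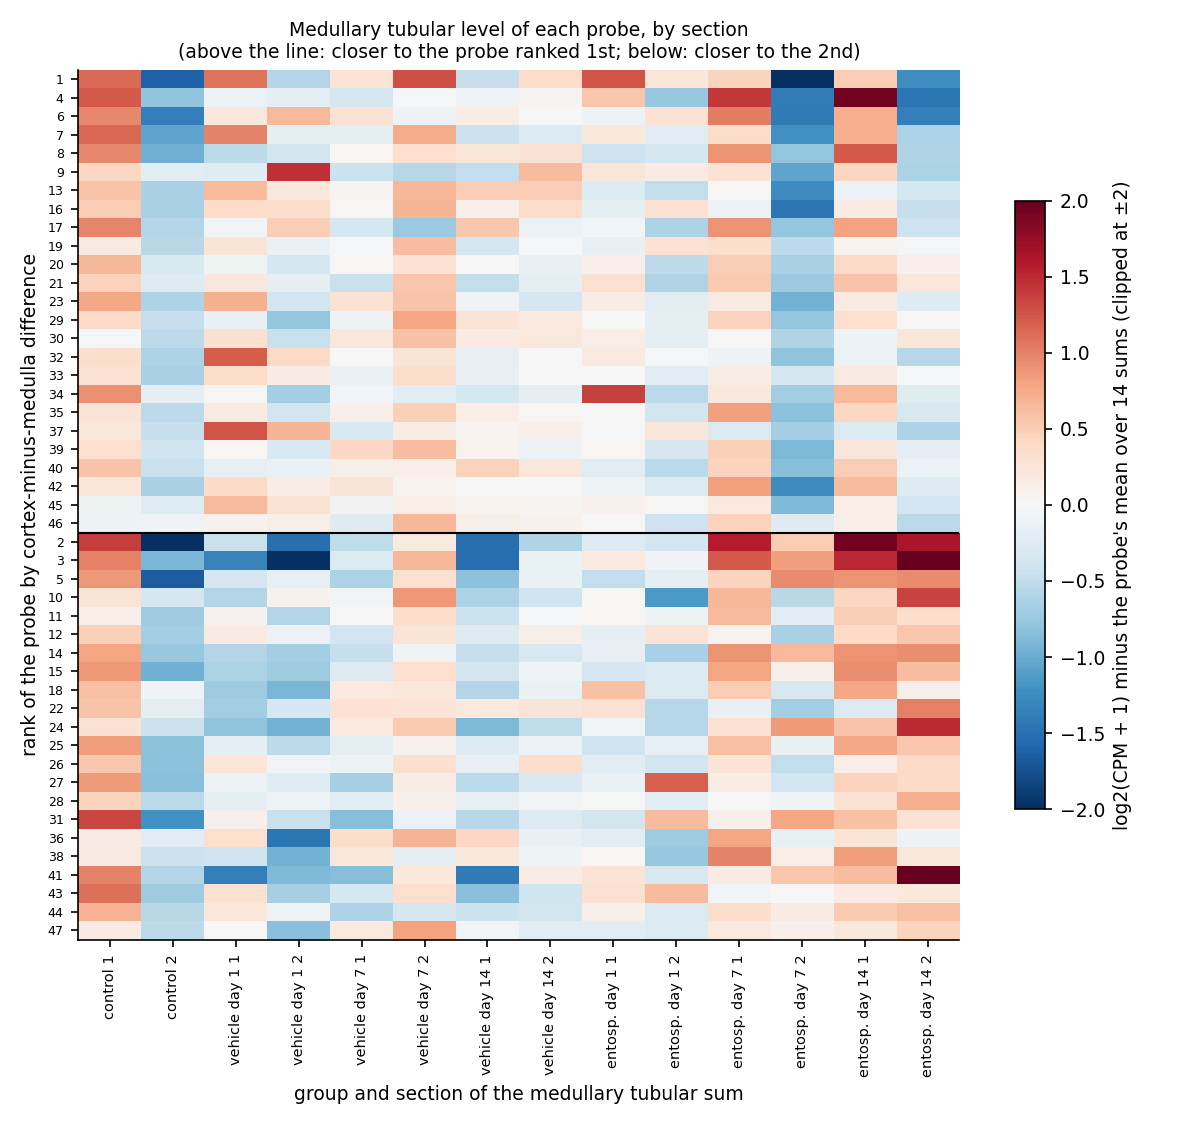
Log2(CPM + 1) of each of the 47 probes (rows, labelled by rank) in the 14 medullary tubular sums (columns), after subtraction of the probe's mean over the 14 sums and clipped at ±2; red, higher; blue, lower. Rows above the line were closer to the probe ranked 1st and rows below to the probe ranked 2nd. Control section 2 is mostly blue throughout, and entospletinib day 14 section 2 is mostly blue above the line and red below it.

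Macrophage segments lie in the same regions, and their counts did not enter the regional part of the rule. Medulla was compared with cortex in macrophage sums of all 14 sections, with the section in the model. Of the 47 members, 42 passed the filter on low counts. By the same call, 2 were higher and 0 lower in the medulla (edgeR), beside 0.218% and 0.675% of 14228 probes. By adjusted p alone, 7 were higher and 0 lower, beside 1.27% and 2.92%. RTS0062238 ranged from 13.7 to 203.8 CPM (median 54.1) in medullary and from 4.94 to 65.3 CPM (median 18.6) in cortical macrophage sums, was higher in the medulla in 12 of 14 sections, and had a log2 fold change of 1.55 (SE 0.34, edgeR adjusted p = 0.0184). The ranges overlapped. It lost its call without vehicle day 7 section 2 (1.41, adjusted p = 0.0706) and without entospletinib day 7 section 1 (1.45, adjusted p = 0.0514). The probe ranked 9th was just past the fold threshold (1.00, SE 0.19, edgeR adjusted p = 0.00246) and was higher in 13 of 14 sections. RTS0061455 had a fold change of the same size but a larger error (1.00, SE 0.43, edgeR adjusted p = 0.338). RTS0076866 passed by adjusted p alone (0.54, SE 0.16, edgeR adjusted p = 0.0309), and RTS0070773 did not (0.55, SE 0.42, edgeR adjusted p = 0.723).

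Counts behind these macrophage values were few. The median count of a member per macrophage sum ranged from 1 to 54, compared with 64 to 1080 in tubular sums. RTS0062238 was read with 1 to 60 counts in the medullary macrophage sums. The median medulla minus cortex difference of the members in macrophages was 1.35 in control section 1, 1.04 in entospletinib day 7 section 1 and 0.90 in entospletinib day 14 section 1, -0.0029 in vehicle day 1 section 2, and between 0.04 and 0.65 in the other 10 sections. The 3 sections with the largest bias in macrophages were also those with the largest bias in tubules. Macrophage and tubular segments of a region were collected from the same tissue, and the part of tubular RNA in the macrophage values was not tested.

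**Figure D5:**
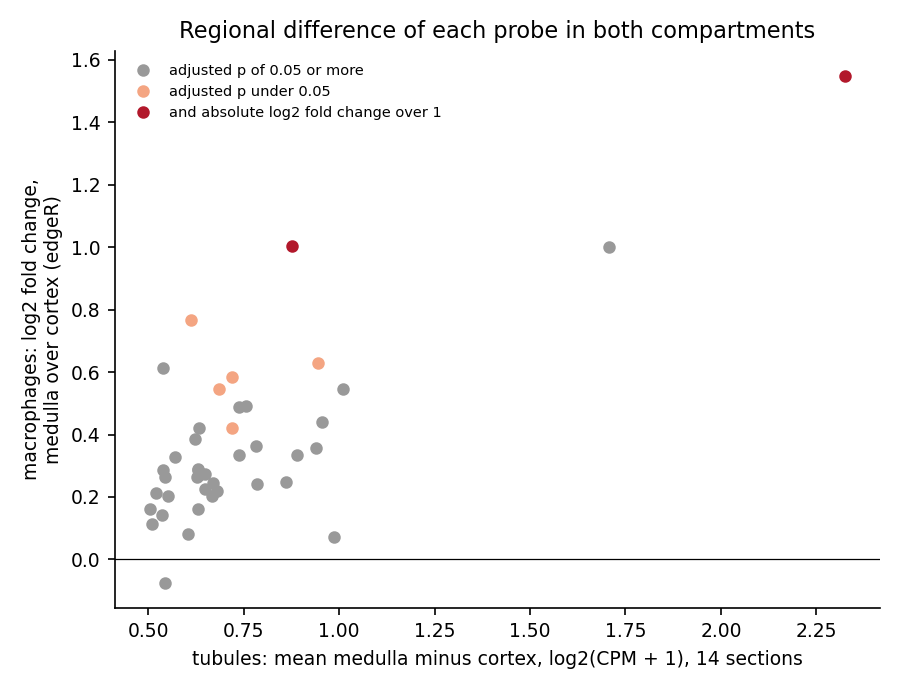
Regional difference in tubules (x axis, mean medulla minus cortex of log2(CPM + 1) over 14 sections, which chose the probes) and in macrophages (y axis, edgeR log2 fold change of medulla over cortex) for the 42 members tested in macrophages; grey, adjusted p of 0.05 or more; orange, under 0.05; red, also an absolute log2 fold change over 1. RTS0062238 lies at the upper right (2.33 and 1.55), and 1 member lies below 0.

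The rule bounded the macrophage level from above in vehicle sections of days 7 and 14. To see whether the probes were tubular in sections it had not used for this, macrophages and tubules were compared in the 6 entospletinib sections, with the section in the model. By the same call, 3 of 47 members were lower and 0 higher in macrophages (edgeR), beside 0.322% and 1.63% of all probes. By adjusted p alone, 21 were lower and 0 higher, beside 5.47% and 4.94%. RTS0070773 was lower by a log2 fold change of -1.36 (SE 0.20, edgeR adjusted p = 1.02e-05) and RTS0061455 by -1.31 (SE 0.20, edgeR adjusted p = 4.66e-05). The probe ranked 24th was the third (-1.12, SE 0.20, edgeR adjusted p = 0.000192). RTS0062238 was lower by adjusted p alone (-0.62, SE 0.17, edgeR adjusted p = 0.0116). Of the 47 log2 fold changes, 42 were negative with a median of -0.44, beside -0.09 over all probes. Positive values were found for 5 members and 37.7% of all probes. The tubular sums of these sections entered the regional condition of the rule. Without them it found 70 probes, of which 1 was called lower and 0 higher with a median of -0.13, and RTS0070773 and the probe ranked 24th were then not chosen. Without entospletinib day 14 section 2, 1 member passed both thresholds, and without day 1 section 1, day 1 section 2 or day 14 section 1 there were 5. RTS0061455 fell short of the fold threshold in the first of these (-0.98). The other members that passed by adjusted p alone were lower by less than the fold threshold.

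Macrophage sums were also compared over time. EdgeR called no member in vehicle day 1 against control (0.717% of 18541 probes called) or in entospletinib day 14 against day 1 (0.561%). DESeq2 called none in either. At an unadjusted p under 0.05, edgeR listed 4 members in each comparison, beside 1935 and 1497 of all probes. Members' median log2 fold change was -0.02 in the first, beside -0.05 over all probes, and 0.20 in the second, where that of all probes was close to 0. In the first comparison the 2 control sums again differed, with 38 of 47 members higher in section 1 and a median difference of 0.76. RTS0070773 had a log2 fold change of -0.76 (SE 0.47) after injury, and RTS0062238 of -0.90 (SE 0.58).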

How the data were processed

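The authors deposited raw counts of unique molecules per probe for 94 segments, made with the GeoMx NGS Pipeline (version 3.1.1.5 in the file headers), before their background checks, filtering and upper quartile normalization. The sample labels name build mm10 and R 4.3.1. No segment was left out here.

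Counts were summed per section, stain and region. The members and lists were chosen with earlier results of these data known. Sums of both regions (14 per compartment) or of single regions (28) were filtered with filterByExpr (minimum count 10, minimum total 15), scaled to the upper quartile, and compared with edgeR 4.0.16 (quasi-likelihood, robust, R 4.3.3) over all probes with Benjamini-Hochberg adjustment. Calls needed a log2 fold change beyond 1 in either direction and an adjusted p below 0.05, as in the study, and interactions the adjusted p alone. SEs are the size of the log2 fold change over the root of its F statistic. Levels within a region are differences of mean log2(CPM + 1), counted at 0.5 or more. Scripts were tested on simulated counts.

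Probes were named by rule: the 2 with the lowest cortex minus medulla difference, then 2 called in the most comparisons, ties going to the lower difference. Other probes given by rank were picked after their values were seen. Alternatives were TMM, DESeq2 1.42.0, no filter, the label prefix as a block (or the group in place of the section), adjusted p alone, leaving out each compared section, choosing the members without the entospletinib sections compared (added after the data were seen), and for levels a pseudocount of 5 CPM or upper quartile scaling.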

Additional observations from a re-analysis of the deposited data

Results flagged for a closer look

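RTS0076866 was called on day 1 for a difference between the medullary and the cortical change, both after injury and with entospletinib. With 1 of 47 members called in each, the share was near that of all probes (2.39% and 1.85%). The injury effect was lower in the medulla (log2 interaction -1.22, SE 0.31), a value that the rule's injury limit bears on, and both vehicle sections were below both controls there. The entospletinib effect was higher in the medulla (1.38, SE 0.30, edgeR adjusted p = 0.0276), and both entospletinib sections were above both vehicle sections. Both tests use the same 2 vehicle sections, so they are not independent of each other. Both calls were lost with the group in place of the section in the model (edgeR adjusted p = 0.21 and 0.189). The injury call was lost in 3 of 4 omissions of a compared section and the entospletinib call in 4 of 4. In macrophage sums of the medulla, the probe was read at 25.4 and 27.0 CPM in these vehicle sections, 86.2 and 47.9 CPM in controls, and 78.7 and 59.7 CPM in entospletinib sections of day 1.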

How the results depend on the processing

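Counts of members called changed by more than 1.5 times as follows. For entospletinib against vehicle on day 14 in tubules (6 members), TMM gave 3 and leaving out a section gave 1 to 6. For medulla against cortex in macrophages (2), adjusted p alone gave 7 and leaving out a section 0 to 2. For macrophages against tubules (3), adjusted p alone gave 21, members chosen without the entospletinib sections compared gave 1, and leaving out a section 1 to 5. For the injury interaction on day 1 (1), DESeq2 gave 3 and leaving out a section 0 to 1. For the entospletinib interaction on day 1 (1), DESeq2 gave 2 and leaving out a section 0 to 1, and on day 14 (0), DESeq2 gave 1 and leaving out a section 0 to 2. Vehicle day 1 against control in macrophages (0) gave 0 to 1. For members 0.5 or more from control, leaving out a section gave 19 to 32 in the medulla on day 1 (16), 10 to 32 on day 7 (10) and 5 to 26 on day 14 (8), and in the cortex 5 to 22 (9), 5 to 23 (12) and 10 to 23 (16). Upper quartile scaling gave 15 in the medulla on day 14 and 7 in the cortex on day 7. The cause of these changes was not tested. A group reduced to 1 sum was assumed to vary like the others. The other results and settings stayed within 1.5 times.

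The numbers of the sections did not pair all groups. In tubular sums the difference between sections 1 and 2 had correlations of -0.55 to -0.11 between controls and other groups, and of 0.17 to 0.72 among the others. With the replicate number as a block, 6 members were called for entospletinib on day 14. With no replicate block, the group taking the place of the section, 0 members were called in both day 1 interactions. No other count changed by more than 1.5 times. With 2 sections per group and few macrophage counts, small differences were not detectable.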
